A study of Mus musculus with 8 samples.

Results

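This comparison set H3K36me3 in mouse embryonic fibroblasts (MEFs) induced to express the reprogramming factors against uninduced MEFs, with vitamin B12 in both media. Its members were chosen from the labels: the ChIP and the input of the groups OSKM B12 and MEF B12, 4 of the 8 samples, of which the 2 ChIP samples have peak lists. MEF B12 cells were i4F MEFs kept 72 h in iPSC medium with 2 µM vitamin B12 and no doxycycline. OSKM B12 cells were i4F MEFs kept for the same 72 h with the same 2 µM vitamin B12 and with 1 µg/ml doxycycline as the labels give it (the unit in the study's methods is larger), which switches on Oct4, Sox2, Klf4 and cMyc. The remaining 2 groups, MEF and OSKM, had the same medium without added vitamin B12 and are used here only as libraries that share none with the comparison. Every group carried the i4F transgene and came from 1 embryo line at E13.5 (labelled Clone 1), the one of those tested that reprogrammed best, so doxycycline itself cannot be told apart from the 4 factors and no library speaks for other embryos. There was 1 ChIP library per condition, so no value below has a replicate check, an SD or a test. The antibody is named H3K36m3 in one label and H3K3me3 in another. The peaks lay over gene bodies and their level rose along them, as described below, which is the pattern of H3K36me3.

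H3K36me3 is laid down by SETD2, which travels with elongating RNA polymerase II, so that transcribed gene bodies carry the mark and it builds up towards their 3′ ends. The methyl group comes from S-adenosylmethionine, and vitamin B12 is a cofactor of methionine synthase, the enzyme that regenerates its precursor. In the first days of reprogramming, fibroblasts switch off mesenchymal and contractile genes before pluripotency genes are activated. The comparison asks at which genes the mark differed after 72 h of OSKM when both media held vitamin B12.

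The 2 libraries were close in depth and in overall level. They held 29046913 ChIP tags (MEF B12) and 29627886 (OSKM B12). On chromosomes 1 to 19, 64734 peaks were called in MEF B12 and 67234 in OSKM B12, covering 163 Mb in either. The lists shared 138 Mb, which was 84.9% of either. Over the shared bases the pileup (extended fragments stacked over a base, per 1000000 ChIP tags) was 0.692 in MEF B12 and 0.715 in OSKM B12, a ratio of 1.03. Along the bodies of marked genes the mean density climbed from 0.0211 in the first of 20 bins to a highest bin of 0.556 in MEF B12, and from 0.0224 to 0.582 in OSKM B12. The ratio of OSKM B12 to MEF B12 stayed between 1.04 and 1.07 in all 20 bins.

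Density here is the pileup summed over the peaks inside a gene body, divided by the length of the body and scaled to 1000000 ChIP tags. A gene was called marked where peaks covered at least 10% of its body in at least 1 of the 2 libraries. Of 20807 protein-coding genes, 9615 were marked (46.2%), 9069 of them past that minimum in both libraries. The log2 change was taken on the log2(density + 0.05) scale, which understates the change of weakly marked genes. The cells were measured in bulk, so a lower density in fewer cells and less mark in every cell cannot be told apart. The log2 change had a median of 0.06, quartiles of -0.06 and 0.17 and an SD across genes of 0.31. For 9120 genes (94.9%) it was smaller than 1.5-fold in either direction.

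At a log2 change of at least 1, 108 genes had gained the mark in OSKM B12 (1.12% of the marked genes), and at -1 or less 64 had lost it (0.666%). The balance depended on the scaling. With the median taken off there were 93 gained and 75 lost, and with the median of each GC bin taken off 79 and 80. For MEF B12 against MEF, minus its median, 67 marked genes passed the same threshold upwards and 38 downwards, to be set beside the 93 and 75. In 68 of the 108 gained genes no peak at all was called in MEF B12, and in 38 of the 64 lost genes none was called in OSKM B12. Such a gene has no fold change, because the lists hold only values past a cut-off and an uncalled gene may lie just under it. Most of these genes were short: 101 gained and 55 lost genes had bodies under 10 kb, as did 25.8% of all marked genes. The share past the threshold was 29.0% in bodies under 2 kb, 7.92% between 2 and 5 kb, 2.76% between 5 and 10 kb, and 0.362% between 10 and 30 kb. The SD of the log2 change fell over the same classes from 1.06 to 0.230. In MEF B12 against MEF, which shares the library MEF B12 with the main comparison, that SD fell likewise from 1.05 to 0.189.

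**Figure D1:**
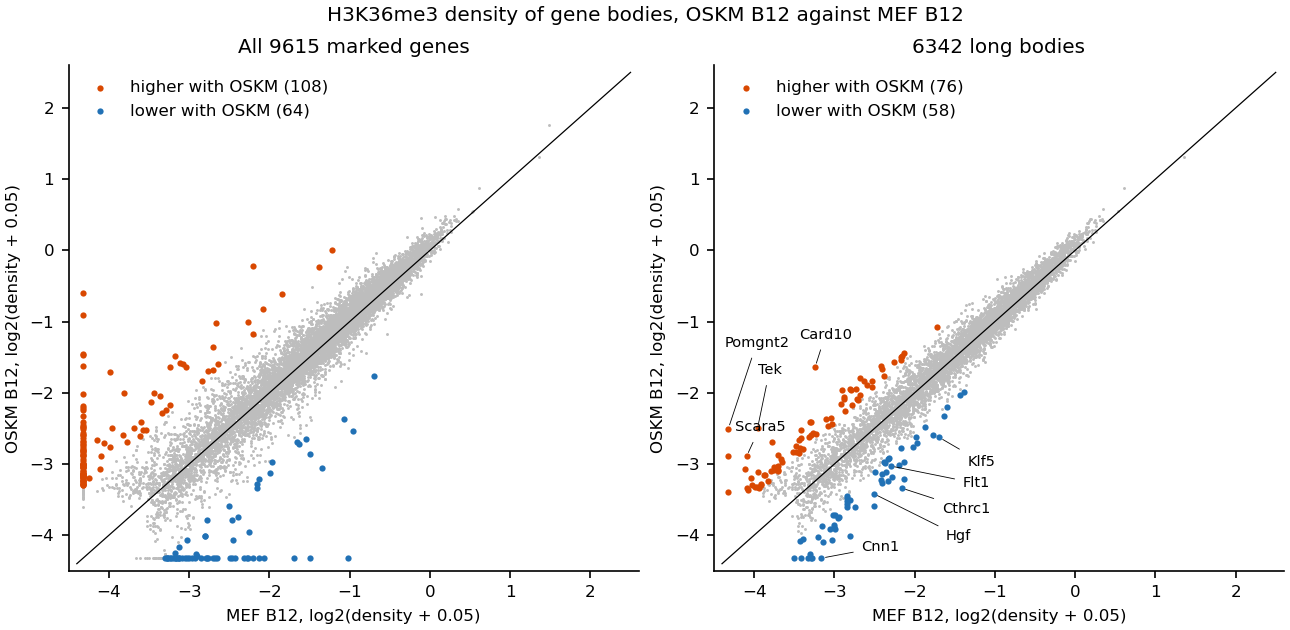
Density of the gene body in OSKM B12 (vertical axis) against MEF B12 (horizontal axis), both as log2(density + 0.05), with 1 point per gene and the line of equal density; orange points are higher in OSKM B12 and blue points lower, past 2-fold among the 9615 marked genes (left) and past 1.5-fold among the 6342 long bodies (right). The points at the left and lower margins are genes with no peak in 1 library, which are many on the left and few among the long bodies.

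The gained genes that headed the list were short. Csf3, the cytokine G-CSF, had no peak in MEF B12, MEF or OSKM and a density of 0.197 in OSKM B12, from 1 peak over 23.0% of a body of 2367 bases. Irs3, an insulin receptor substrate, had densities of 0.0133 in MEF B12, 0.256 in OSKM B12, 0.141 in MEF and 0 in OSKM. Cdkn1c, the imprinted cell cycle inhibitor p57, had densities of 0.0603 in MEF B12, 0.307 in OSKM B12, 0.0808 in MEF and 0 in OSKM. OSKM B12 was the highest of the 4 libraries for these 3 genes, while OSKM without vitamin B12 had no peak in any of them. Pgp, the phosphoglycolate phosphatase, had 0.0685 in MEF B12, 0.280 in OSKM B12, 0.0881 in MEF and 0.114 in OSKM. The others named by the same rule were Vmac, Slc50a1, Pomgnt2, Rex1bd, Igfals, Card10, Lynx1 and Fancd2os, with densities of 0.101 to 0.271 in OSKM B12. Of these 8, only Card10 had any peak in MEF B12.

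Among the lost genes, Cisd3 and Dsel stood first. Dsel, a dermatan sulfate epimerase-like gene, had 0.136 in MEF B12 and 0.0654 in MEF, and no peak in OSKM B12 or OSKM. Cisd3, a mitochondrial iron-sulfur protein, had 0.158 in MEF B12, 0.107 in MEF, 0 in OSKM B12 and 0.00130 in OSKM. In both genes the 2 uninduced libraries were above the 2 induced ones. The same order held for S100a1, Polr2k (a subunit shared by the RNA polymerases), Mustn1, Ckb (the brain form of creatine kinase), Cthrc1, Pimreg and Hspe1, the partner chaperonin of HSP60. Hspe1 had the highest density of them in MEF B12, with 0.274 in MEF B12, 0.102 in OSKM B12, 0.127 in MEF and 0.0774 in OSKM. It did not hold for Sod3, which had a peak in MEF B12 alone (0.0976), or for Dnajb9, which had 0.140 in MEF B12, 0.0244 in OSKM B12, 0 in MEF and 0.0124 in OSKM.

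Promoters of the genes named first in each direction are printed to show the sequence from which these short bodies start. They come from RefSeq on GRCm38.p6 and run on the strand of the gene from 250 bases before the start of transcription to 50 after it. The capital marks the first transcribed base. Irs3 and Vmac gained the mark, and Cisd3, Dsel and S100a1 lost it; Csf3 was the other gene named first.
Irs3 chr5:137645665-137645964: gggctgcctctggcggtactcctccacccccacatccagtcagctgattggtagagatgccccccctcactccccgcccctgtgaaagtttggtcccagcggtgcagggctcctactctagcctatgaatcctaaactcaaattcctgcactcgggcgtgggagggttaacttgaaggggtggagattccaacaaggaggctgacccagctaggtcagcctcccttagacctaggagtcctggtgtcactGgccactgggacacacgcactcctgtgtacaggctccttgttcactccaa
Vmac chr17:56717650-56717949: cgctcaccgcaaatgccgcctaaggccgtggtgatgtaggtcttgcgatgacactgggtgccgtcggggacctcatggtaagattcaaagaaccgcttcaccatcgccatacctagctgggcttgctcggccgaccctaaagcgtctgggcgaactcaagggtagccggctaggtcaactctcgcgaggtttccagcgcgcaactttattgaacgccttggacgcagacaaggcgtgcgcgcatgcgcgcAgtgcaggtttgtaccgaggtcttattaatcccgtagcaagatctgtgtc
Cisd3 chr11:97685683-97685982: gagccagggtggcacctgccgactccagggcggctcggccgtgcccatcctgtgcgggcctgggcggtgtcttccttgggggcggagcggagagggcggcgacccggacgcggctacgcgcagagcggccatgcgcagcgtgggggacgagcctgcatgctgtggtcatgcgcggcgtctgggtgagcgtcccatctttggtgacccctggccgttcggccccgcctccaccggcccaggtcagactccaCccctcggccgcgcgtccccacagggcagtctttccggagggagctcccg
Dsel chr1:111864869-111865168: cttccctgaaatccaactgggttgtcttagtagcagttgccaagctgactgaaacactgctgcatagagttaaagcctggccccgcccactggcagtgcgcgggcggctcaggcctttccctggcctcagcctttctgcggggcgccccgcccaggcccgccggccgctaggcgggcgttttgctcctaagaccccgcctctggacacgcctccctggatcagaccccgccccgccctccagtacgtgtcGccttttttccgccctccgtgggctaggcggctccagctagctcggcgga
S100a1 chr3:90514281-90514580: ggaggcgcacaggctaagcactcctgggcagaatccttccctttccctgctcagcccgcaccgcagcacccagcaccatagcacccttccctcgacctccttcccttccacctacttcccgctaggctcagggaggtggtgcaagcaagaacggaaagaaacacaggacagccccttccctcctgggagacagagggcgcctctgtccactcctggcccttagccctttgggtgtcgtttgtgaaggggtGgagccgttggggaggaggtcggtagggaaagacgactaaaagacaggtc
Irs3, Vmac, Dsel and S100a1 lie on the minus strand and Cisd3 on the plus strand. None of these 5 held any of the 4 motifs searched on both strands, the E-box CACGTG of MYC and MAX, the octamer ATTTGCAT of OCT4 and other POU factors, GGGTGTGG of KLF factors and TGANTCA of AP-1. The table had promoters for 78 of the 107 gained symbols (88 promoters) and 38 of the 64 lost ones (46 promoters). CACGTG was in 7.95% of the promoters of gained genes, 4.35% of those of lost genes, 10.4% of those of marked genes and 7.14% of all 31396 autosomal promoters. ATTTGCAT was in 2.27%, 2.17%, 1.02% and 1.75% of the same sets, GGGTGTGG in 4.55%, 0%, 3.85% and 3.57%, and TGANTCA in 3.41%, 6.52%, 4.61% and 7.84%. The counts behind the gained and lost shares ran from 0 to 7 promoters.

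Because short bodies hold few tags, the genes with bodies of at least 10 kb that shared under 10% of their bases with another coding gene were taken as a separate class, chosen after the values were seen. There were 6342 such long bodies, with an SD of the log2 change of 0.21. At 1.5-fold on the same scale, 76 were higher in OSKM B12 (1.2%) and 58 were lower (0.915%), and only 3 and 6 of them had no peak in the lower library. The larger number of higher genes turned with the scaling, to 59 higher and 78 lower with the median taken off, 59 and 61 scaled to the summed peak signal, 53 and 66 adjusted for GC content and 29 and 37 with fold enrichment as the level. With peaks of −log10 q of at least 5 only, 11 of the 76 and 4 of the 58 were called again. For a gauge of how far libraries of this series differed, MEF B12 against MEF, minus its median, had 50 long bodies 1.5-fold higher (0.788%) and 18 lower (0.284%), with an SD of 0.16, to be set beside the 59 and 78 above. That pair shares MEF B12 with the comparison and differs in vitamin B12, so it is no pure measure of error.

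Among the higher long genes, Tek, the angiopoietin receptor TIE2 of endothelial cells, spans 135688 bases of chromosome 4 (chr4:94739289-94874976, mm10). Its density was 0.0144 in MEF B12, 0.128 in OSKM B12, 0.00993 in MEF and 0.0299 in OSKM. Both induced libraries were above both uninduced ones. Peaks covered 3.63% of the body in MEF B12 and 26.6% in OSKM B12, while the mean level inside peaks (pileup per 1000000 tags) was 0.398 and 0.482. Density counts a base under the calling cut-off as 0, so the ratio of 2 such densities is no fold change of the mark and is not given for single genes. Peaks numbered 7 in MEF B12, 31 in OSKM B12, 7 in MEF and 17 in OSKM. Scara5, a ferritin receptor of mesenchymal cells, had 0.00856, 0.0847, 0.00532 and 0.0137 in the same order of libraries, and Plekha6, a junctional pleckstrin homology protein, had 0.00767, 0.0693, 0.00460 and 0.0167. In Scara5 the covered share was 2.46% in MEF B12 and 18.3% in OSKM B12, and in Plekha6 it was 2.12% and 15.8%. The mean level inside peaks was 0.348 and 0.463 in Scara5 and 0.361 and 0.438 in Plekha6. That level is taken only over bases past the calling cut-off, so it cannot fall far. It cannot tell whether the covered share or the level of the mark differed more.

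Card10, a scaffold of NF-kappaB signalling, had 0.0558 in MEF B12 and 0.271 in OSKM B12, with 15% and 54.1% of its body covered and a mean level inside peaks of 0.373 and 0.501. In MEF and OSKM its density was 0.0556 and 0.0463, so that OSKM B12 stood apart from the other 3 libraries. Pomgnt2, a glycosyltransferase that acts on dystroglycan, had no peak in MEF B12, 0.126 in OSKM B12, 0.0321 in MEF and 0.00851 in OSKM. Cenpm, a kinetochore protein, had 0.0232, 0.106, 0 and 0.0196. Twist2, a mesenchymal transcription factor, had 0.0437 in MEF B12, 0.124 in OSKM B12, 0.0575 in MEF and 0.0149 in OSKM, and the imprinted gene Dlk1, a Notch-like inhibitor of adipogenesis, had 0.106, 0.240, 0.0823 and 0.0461. For Twist2 and Dlk1 the OSKM library was the lowest of the 4 and OSKM B12 the highest. Peli3, Abca7, Naaa and Tdp2 completed the 12 that moved most.

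**Figure D2:**
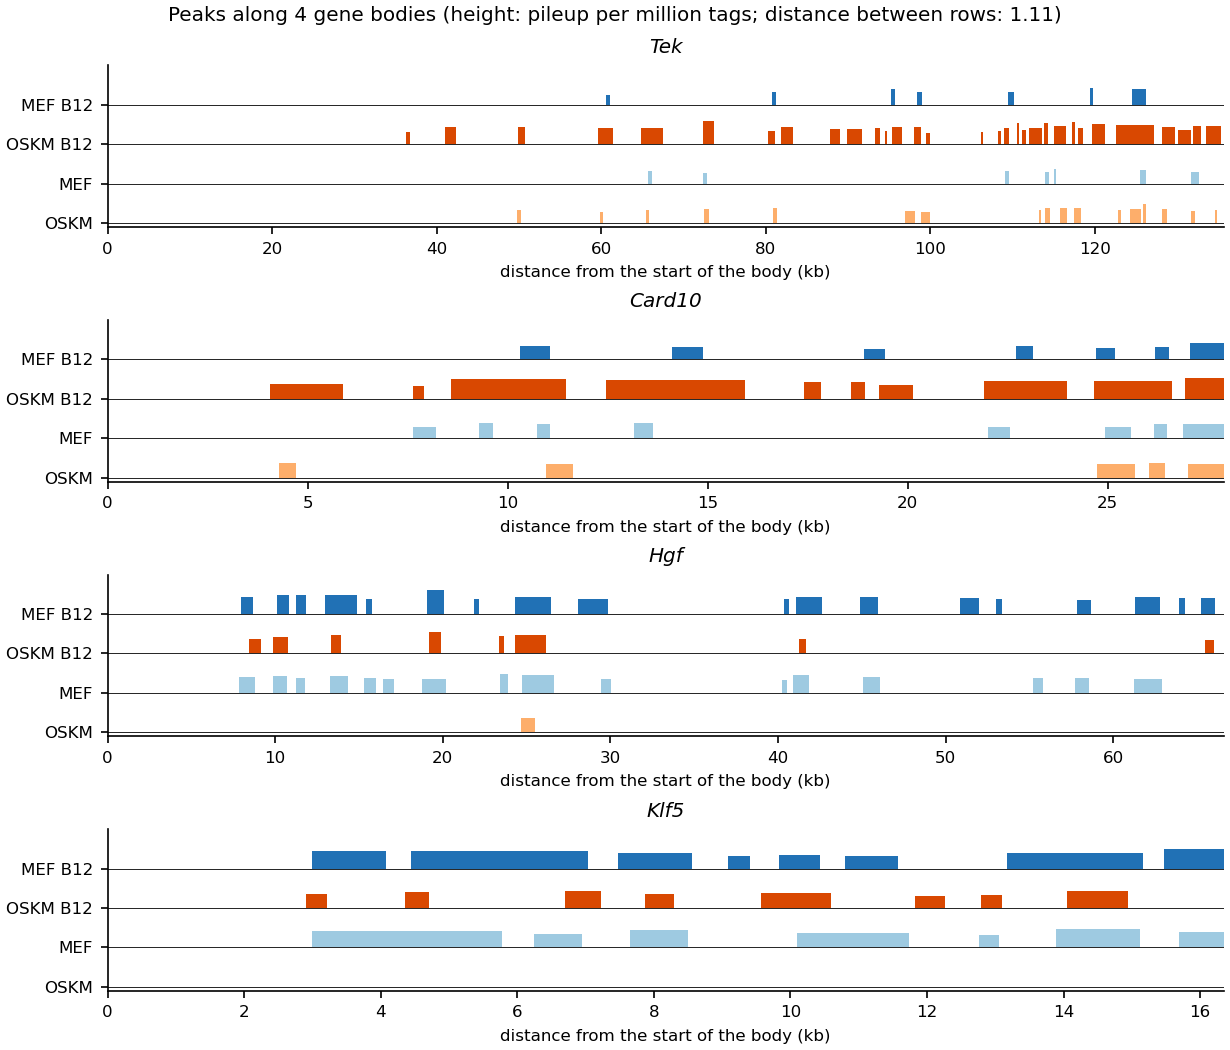
Peaks along the bodies of Tek, Card10, Hgf and Klf5 in MEF B12, OSKM B12, MEF and OSKM, drawn by distance from the start of the body in kb (horizontal axis), with the height of each block giving its pileup per 1000000 tags. Tek and Card10 have wide peaks in OSKM B12 where MEF B12 has few, Hgf has 18 peaks in MEF B12 and 8 in OSKM B12, and Klf5 has none in OSKM.

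Among the long genes that were lower in OSKM B12, Hgf, the hepatocyte growth factor made by mesenchymal cells, spans chr5:16553550-16620152 and had densities of 0.126 in MEF B12, 0.0436 in OSKM B12, 0.0970 in MEF and 0.00503 in OSKM. Peaks covered 26.1% of it in MEF B12 and 8.97% in OSKM B12, with a mean level inside peaks of 0.482 and 0.486. Klf5, a Krüppel-like factor, had 0.259 in MEF B12, 0.112 in OSKM B12, 0.224 in MEF and no peak in OSKM. Cthrc1, a collagen triple helix protein secreted by activated fibroblasts, had 0.174, 0.0489, 0.211 and 0. Cenpq, a centromere protein, had 0.178, 0.0584, 0.138 and 0. In these 4 genes the uninduced libraries lay above the induced ones and OSKM was the lowest of all. Cnn1, the smooth muscle calponin, had 0.0618 in MEF B12 and 0.0430 in MEF, and no peak in either induced library. Trpv2, a cation channel, had 0.127 in MEF B12, 0.0330 in OSKM B12, 0.0154 in MEF and 0.00938 in OSKM, so that MEF B12 alone was high. Tatdn3 had 0.0499 in MEF B12, 0 in OSKM B12, 0.0370 in MEF and 0.0510 in OSKM, and B3gnt5 and Cd300lb had peaks in MEF B12 only. Bet1, Steap4, Rgcc and Mzt2 made up the rest of the 12.

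**Figure D3:**
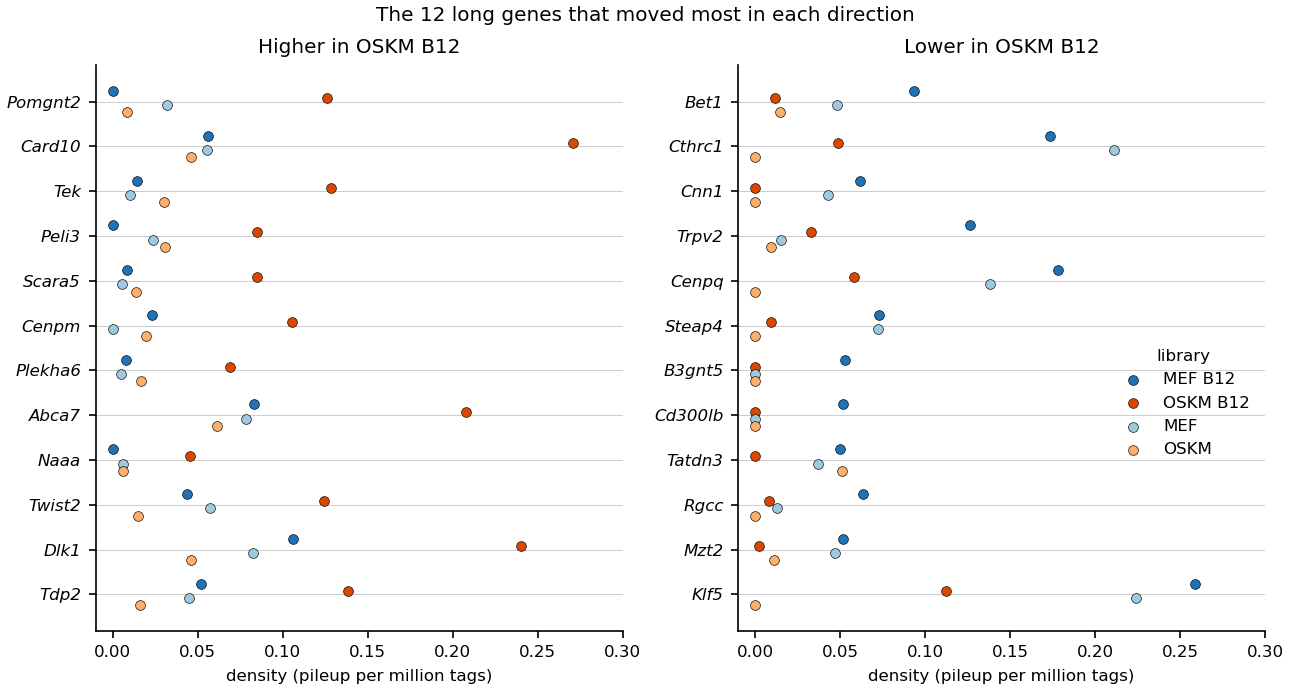
Density (pileup per 1000000 tags, horizontal axis) of the 12 long genes that moved most in each direction, with 1 point for each of the libraries MEF B12, OSKM B12, MEF and OSKM. On the left OSKM B12 lies above the other 3 libraries in all 12 genes, and on the right MEF B12 lies above OSKM B12, which the choice of genes fixed, while OSKM is the highest library in Tatdn3 alone.

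Sequence from inside 4 of these genes is shown because it is at the places where 1 library had a peak and the other had none, and because base composition went with the change, as described below. Each line gives 200 bases at the middle of the peak with the largest pileup times length that had no base in a peak of the other library, on the plus strand of GRCm38, with runs of at least 3 G or C bases in capitals. The Tek and Card10 peaks were called in OSKM B12 and the Hgf and Klf5 peaks in MEF B12.
Tek chr4:94805402-94805601: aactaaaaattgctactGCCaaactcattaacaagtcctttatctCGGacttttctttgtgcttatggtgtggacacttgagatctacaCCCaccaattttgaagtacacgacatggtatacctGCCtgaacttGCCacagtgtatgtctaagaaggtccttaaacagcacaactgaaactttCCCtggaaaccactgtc
Card10 chr15:78797971-78798170: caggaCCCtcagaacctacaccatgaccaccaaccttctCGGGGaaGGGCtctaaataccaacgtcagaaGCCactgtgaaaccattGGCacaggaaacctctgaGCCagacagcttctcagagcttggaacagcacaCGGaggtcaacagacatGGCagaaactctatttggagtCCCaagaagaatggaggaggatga
Hgf chr5:16582411-16582610: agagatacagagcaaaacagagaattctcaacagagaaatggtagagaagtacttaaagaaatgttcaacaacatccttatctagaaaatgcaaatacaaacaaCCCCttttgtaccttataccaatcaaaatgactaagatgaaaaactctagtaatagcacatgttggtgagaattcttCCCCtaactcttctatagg
Klf5 chr14:99309783-99309982: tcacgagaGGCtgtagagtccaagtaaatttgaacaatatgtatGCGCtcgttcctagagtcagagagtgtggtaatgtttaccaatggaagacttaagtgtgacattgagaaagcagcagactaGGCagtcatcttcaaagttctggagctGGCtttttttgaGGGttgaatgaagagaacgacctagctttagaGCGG
All 4 stretches are intronic in the longest transcript: intron 5 of Tek, intron 4 of Card10 (a minus-strand gene), intron 8 of Hgf and intron 3 of Klf5. Their GC content was 41.5%, 51.5%, 34% and 43.5%, beside 41.1%, 54.5%, 35.3% and 44.3% for the whole bodies. The peaks had pileups between 10.2 and 13.1 fragments and fold enrichments over input of 2.65, 2.77, 2.89 and 2.49, which is near the median fold enrichment of all peaks (2.74 in MEF B12 and 2.73 in OSKM B12).

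The change of density followed the GC content of the gene body. Across the 6342 long bodies, Spearman's rho between the log2 change and GC content was 0.56, as a description over genes that share both libraries. Long bodies were put in 10 equal classes by GC content. In the class lowest in GC (median 38.4%) the median log2 change was -0.12, with 1 gene 1.5-fold higher and 16 lower. In the class highest in GC (median 53.6%) it was 0.19, with 20 genes higher and 5 lower. OSKM against MEF, which shares no library with the comparison, had the same trend (rho 0.49, from -0.29 to 0.15 after its median was taken off), and in MEF B12 against MEF it was near 0 (rho 0.0072). The trend was in the pileup over bases called in both libraries, which went from -0.05 to 0.16, and the input level recovered from pileup and fold enrichment over the same bases went from 0.01 to 0.14. With fold enrichment in place of the scaled pileup, rho was 0.36 and the medians ran from -0.09 to 0.11. What part base composition has in the change of single genes was not tested. After the median of each of 20 GC bins was taken off, 79 of the 108 gained, 60 of the 64 lost, 47 of the 76 higher long and 52 of the 58 lower long genes stayed past their thresholds. With the genes that newly passed, the totals were 79 gained, 80 lost, 53 higher and 66 lower. Tek lies in a body of low GC and its log2 change was 1.47 before and 1.51 after, while that of Card10 was 1.60 and 1.41, that of Hgf -0.91 and -0.78 and that of C3 -0.84 and -1.01.

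**Figure D4:**
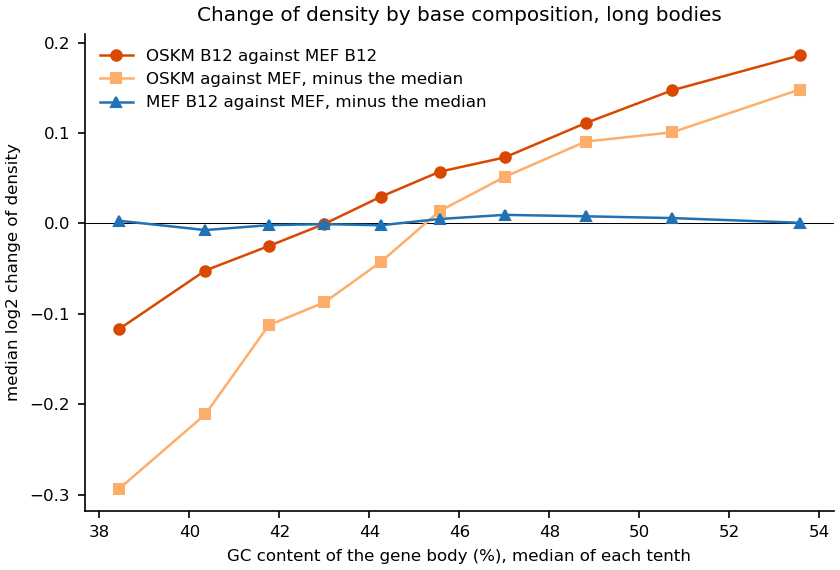
Median log2 change of density (vertical axis) in each of 10 equal classes of the 6342 long bodies by GC content (horizontal axis, median GC of the class in %), for OSKM B12 against MEF B12, OSKM against MEF and MEF B12 against MEF, the last 2 minus their medians. Both comparisons of induced with uninduced cells climb with GC content, from -0.12 to 0.19 and from -0.29 to 0.15, and MEF B12 against MEF stays near 0.

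OSKM and MEF, grown without added vitamin B12, gave a second look at the same genes from libraries that the choice did not use. Over the marked genes the median log2 change of OSKM against MEF was -0.70, so each gene was read against that median. Of the 108 gained genes, 79 lay above it (73.1%), beside 50% of all marked genes, and of the 64 lost genes 34 lay below it (53.1%), beside 50%. These shares depend on the pseudocount, because a gene with no peak in either library has a log2 change of 0, which is above the median. This was so for 38 gained and 17 lost genes. Among the 70 gained genes with a peak in MEF or OSKM, 31 (44.3%) were above the median ratio taken without a pseudocount, and with density scaled to the summed peak signal 27.2% of the gained genes lay above the median, so the direction of this share turned with the method.

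Without a pseudocount, the ratio of OSKM to MEF had a median of 0.523 over marked genes with a peak in at least 1 of them. This is a ratio of called signal, in which a base under the cut-off counts as 0, and no fold change of the mark. Density was higher in OSKM than in MEF, against that general fall, in 14 of the 74 higher long genes with such a peak (18.9%). The same was seen in 44 of 6334 long bodies in all (0.695%) and in 40 of 1618 whose larger density with vitamin B12 was at most 0.182, which most of the higher and lower long genes did not exceed (2.47%). The higher long genes were chosen for a low density in MEF B12, and in several the density in MEF was low too. In MEF, Tek had 0.00993, Scara5 0.00532 and Cenpm 0. The other long bodies were not matched for that, so the difference between these shares cannot be read as a result. Of the same 74 genes, 40 (54.1%) were above the median ratio and 22 (29.7%) at least 1.5-fold under it, so they went both ways. The 14 genes were Tek, Peli3, Scara5, Cenpm, Plekha6, Als2cl, Camkk1, Pi16, Scd4, Pou6f1, Abca2, Efna2, Ccdc12 and Syne2. Pou6f1, a POU factor, had 0.139 in MEF B12, 0.265 in OSKM B12, 0.129 in MEF and 0.165 in OSKM. Syne2, which links the nucleus to the cytoskeleton and has the longest body of the 14 (292609 bases), had 0.0162, 0.0514, 0.00368 and 0.0105.

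Of the 58 lower long genes, 55 had a peak in MEF or OSKM. In 45 of them (81.8%) the ratio of OSKM to MEF was at least 1.5-fold under the median ratio. This was so for 1275 of all 6334 long bodies (20.1%) and for 776 of the 1618 of low density (48%). In 3 of the 55 (5.45%) density was higher in OSKM than in MEF. No peak was called in OSKM in 18 of the 55 (32.7%), beside 93 of the 1618 of low density (5.75%). These shares are counts of called signal, no fold change of the mark, and were not tested. The lower long genes were chosen for a low density in OSKM B12 against MEF B12. The other long bodies were not matched for that, so the difference between these shares cannot be read as a result. On the centred log2(density + 0.05) scale, where 307 of 6342 long bodies were 1.5-fold lower (4.84%), 21 of these 58 were.

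Of those 21 genes, 7 are given here, picked after their values were seen. Tnc, the matrix protein tenascin C, had 0.149 in MEF B12, 0.0818 in OSKM B12, 0.114 in MEF and 0.0138 in OSKM. Ltbp2, a protein of elastic fibres, had 0.172, 0.0964, 0.160 and 0.0179, and Itga11, the fibroblast collagen receptor subunit, had 0.320, 0.194, 0.227 and 0.0619. C3, the complement component, had 0.178, 0.0776, 0.0910 and 0.00597. Cd274, the interferon-induced checkpoint ligand PD-L1, had 0.155, 0.0600, 0.0756 and 0, and Oasl1, an interferon-induced gene, had 0.205, 0.103, 0.122 and 0.0196. Flt1, a VEGF receptor, had 0.153 in MEF B12, 0.0726 in OSKM B12, 0.101 in MEF and 0.00815 in OSKM, from 44, 29, 42 and 9 peaks. In all 7 the order was the same, with MEF B12 highest, then MEF, then OSKM B12, then OSKM. The choice of genes fixed MEF B12 above OSKM B12 and MEF above OSKM. Among the 21, Cthrc1 (0.174 in MEF B12, 0.211 in MEF), Zfp455 (0.0926 and 0.0938) and Ccdc90b (0.280 and 0.282) had another order. Xdh (xanthine dehydrogenase), Aldh1l2 (a mitochondrial folate enzyme) and Hgf, Klf5, Cthrc1, Cenpq and Steap4 were among the rest.

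The lists of genes by role moved little as wholes, with medians between 0.00 and 0.16 for every list with over 10 marked members, beside 0.06 over all marked genes. In all, 7 of the 324 marked list members were gained or lost (2.16%), beside 172 of all 9615 marked genes (1.79%), a share near the background. The factor loci themselves, where reads of the transgene could also align, were marked at Klf4 and Myc. Klf4 had 0.188 in MEF B12, 0.171 in OSKM B12, 0.218 in MEF and 0.0462 in OSKM. Myc had 0.138, 0.133, 0.0473 and 0.0652, and no peak was called in Pou5f1 or Sox2 in any of the 4 libraries.

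Of 49 fibroblast matrix and surface genes 46 were marked, 43 of them past the minimum in both libraries, with a median density of 0.577 in MEF B12 and 0.599 in OSKM B12, 30 of them higher in OSKM B12. None was gained and 1 was lost, S100a4, which had 0.0611 in MEF B12 and no peak in the other 3 libraries, and whose body lies almost wholly (93%) in that of another gene model. Tnc was lower and Mfap5 (0.123 in MEF B12, 0.215 in OSKM B12) was higher, each past 1.5-fold. Fap (0.0263 in MEF B12, 0.0631 in OSKM B12) did not pass it on the log2(density + 0.05) scale. In the pair without vitamin B12, Mfap5 had 0.148 in MEF and 0.0430 in OSKM. Of 40 mesenchymal transcription factors 25 were marked, with a median log2 change of 0.16 that was 0.02 after the GC bins were taken off, and 2 were lost, beside 0.666% of all marked genes. These were Msx1, which had 0.0584 in MEF B12 and no peak elsewhere, and Snai2 (Slug), which had 0.0557 in MEF B12, 0.0496 in MEF and no peak in either induced library. Both bodies are short, 4099 and 3534 bases, with about 24 and 20 tags in MEF B12. Of the 871 marked genes with bodies of 2 to 5 kb, 25 were lost. Twist2 and Osr2 (0.258 and 0.426) were the 2 past 1.5-fold in the other direction.

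In the contractile apparatus 28 of 34 genes were marked, 18 of them higher in OSKM B12, with a median log2 change of 0.04. Of these 28, 1 was lost, Cnn1, beside 0.666% of all marked genes. The next 2 by size were also lower: Acta2, the smooth muscle actin, had 0.321 in MEF B12, 0.209 in OSKM B12, 0.235 in MEF and 0.0606 in OSKM, and Tagln (SM22) had 0.466, 0.335, 0.295 and 0.215. Neither passed 1.5-fold. Of 33 TGF-beta genes 28 were marked and 1 was gained, the BMP target Id3, which had 0 in MEF B12, 0.0816 in OSKM B12, 0.0280 in MEF and 0.183 in OSKM, so that both induced libraries were above both uninduced ones. Its body has only 1896 bases, with about 16 tags in OSKM B12, and 29.0% of marked genes under 2 kb were past the threshold. Ltbp2 was lower and Eng, the TGF-beta co-receptor endoglin, higher (0.0722 and 0.135).

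Epithelial and pluripotency genes were mostly without the mark in both libraries. Of 41 epithelial genes 7 were marked and 28 had no peak in either, and none of the 7 was gained or lost. Ovol1 had 0.0441 in MEF B12 and no peak in OSKM B12. Cdh1 and Epcam were among the unmarked. Of 41 pluripotency genes 11 were marked and 26 had no peak in either, none was gained or lost, and Nanog, Esrrb and Sall4 were among the unmarked. The genes of that list that lay furthest from 0 were Klf5, described above, Etv5, an ETS factor (0.0559 in MEF B12 and 0.0924 in OSKM B12), and Klf2 (0.368 and 0.263).

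Biosynthetic genes were marked in both states. Of 43 ribosome biogenesis genes 42 were marked, 31 of them higher in OSKM B12, with a median log2 change of 0.09 and none past 1.5-fold. That is above the 0.06 of all marked genes, but 0.00 after the GC bins were taken off. Nhp2 and Gar1, proteins of the same small nucleolar particle, moved most, from 0.392 to 0.580 and from 0.246 to 0.367. All but 1 of 30 glycolysis, nucleotide and one-carbon enzymes were marked, with a median of 0.10 and none gained or lost. Of 26 vitamin B12 and methionine cycle genes 18 were marked and 1 was gained, Gnmt, the glycine methyltransferase that disposes of S-adenosylmethionine, with 0.104 in MEF B12, 0.340 in OSKM B12, 0.146 in MEF and 0.0276 in OSKM. Cd320, the receptor for vitamin B12 bound to transcobalamin, had 0.0435, 0.115, 0.101 and 0. In both genes OSKM B12 was the highest library and OSKM the lowest. The H3K36 methylation list (23 of 25 marked) had no gene past 1.5-fold on the log2(density + 0.05) scale. The same held for the cell cycle and p53 list (37 of 42). Of 20 broadly expressed genes 20 were marked, 10 of them higher, with a median of 0.00.

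**Figure D5:**
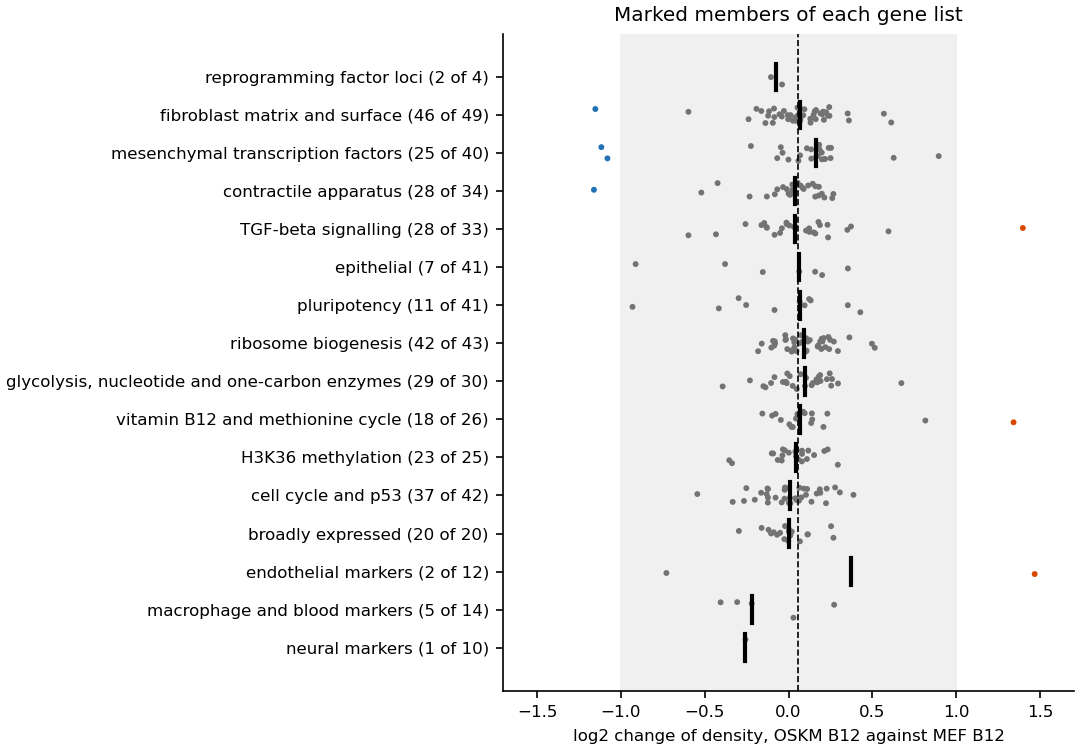
Log2 change of density, OSKM B12 against MEF B12 (horizontal axis), of each marked member (points) of the gene lists, with marked and listed numbers beside each name; short black lines are list medians, the dashed line is the median of all marked genes (0.06), and the grey band ends at the thresholds of -1 and 1. Points outside the band are the members gained (orange, Id3, Gnmt and Tek) or lost (blue, S100a4, Msx1, Snai2 and Cnn1).

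Markers of other cell types were checked against the labelled tissue. Of 12 endothelial genes 2 were marked, Tek and Flt1, which differed in opposite directions, and the other 10, Pecam1, Cdh5 and Kdr among them, were not. None of 10 skeletal muscle genes and 1 of 10 neural genes (Tubb3, whose body lies within another gene model) were marked. Of 14 macrophage and blood genes 5 were marked, Csf1r, Cd68, Laptm5, Fcer1g and Vav1, while Ptprc, Itgam and Adgre1 were among those not marked. The 5 had a median log2 change of -0.22, with 2 of them higher in OSKM B12. The summed density of that list was 1.89 in MEF B12 and 1.93 in OSKM B12. Whether other cells had a part in the change at Tek, Flt1 or C3 was not tested. The summed density of the endothelial list was 0.222 and 0.255.

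Regions called in only 1 of the lists were many and weak. After peaks at most 1 kb apart were joined, 9213 of 37048 regions in OSKM B12 (24.9%) and 8202 of 35603 in MEF B12 (23.0%) had no base in a peak of the other list. They made up 3.24% and 2.86% of the covered bases, with a median length of 470 and 467 bases and median pileups of 11.3 and 11.1 fragments, beside 13.9 and 13.4 over all peaks. Of those in OSKM B12, 8422 touched a protein-coding gene, 184 only a noncoding gene, 344 lay within 5 kb downstream of a coding gene and 263 elsewhere, and in MEF B12 the numbers were 7530, 172, 297 and 203. The heaviest in OSKM B12 was a 6357-base region in Plekha6 (chr1:133284823-133291179), followed by regions in Clpb, Vps8, Frmd4b and Nav2. In MEF B12 the 3 heaviest were short, 368 to 1504 bases, and lay close together on chromosome 17 at the noncoding genes Gm26917, Gm42418 and AY036118, with pileups of 211 to 264. They were also wholly covered in OSKM and not at all in MEF. After them came regions in Flt1 (chr5:147640974-147646627) and Cul3.

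Close to the 2-fold threshold, the 3 genes just inside it among the gained were Ccdc107 and Emc9 (both 1.01) and Fam131b (1.02), and just outside were Jmjd7 and Them6 (both 0.99) and Cd248 (0.98). Among the lost, Tmem35b (-1.01), Cd300lb and Znrd1as (both -1.03) were just inside, and Tatdn3 (a rounding step away), Hexim1 (-0.98) and En1 (-0.97) just outside.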

How the data were processed

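H3K36me3 ChIP–seq and input libraries of 1 i4F MEF line were compared at 72 h, OSKM B12 with MEF B12, with OSKM and MEF as further libraries. Per the labels and the methods, alignment by the authors was with Bowtie 0.12.9 on mm10 (versions as in the submitters' processing notes). Per the file headers they removed duplicate tags and called broad peaks with MACS2 2.2.6 for each ChIP against its own input (q of 0.05 and 0.1). Each deposited list gives, for a peak, its signal (mean pileup of extended fragments, not scaled), the fold enrichment over input, and −log10 p and −log10 q; positions are in base pairs, a unit with no scale. Lists hold only called peaks, so 0 means that none was called. ChIP libraries held 29046913 to 33399267 tags and inputs 34524486 to 36150875.

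Peaks on chromosomes 1 to 19 were intersected with the longest transcript of each protein-coding gene (GENCODE M21, on the assembly of mm10); 2249 and 2200 peaks of MEF B12 and OSKM B12 elsewhere were left out. Density, marked genes and thresholds are defined in the text, with a pseudocount of 0.05. No test was possible with 1 library per condition. The members, gene lists and motifs were chosen with earlier results of these data known. Named were the factor loci; up to 12 gained and 12 lost genes of largest change whose covered share moved by at least 20 percentage points, with bodies of at least 2000 bases, under 10% shared and no clone name; up to 5 members per list and each called one; and 3 genes on each side of each threshold. Of the genes so named, 2 are not reported here. Long genes (12 per direction) and the GC bins were added after seeing the data. GC content and sequences came from GRCm38 and RefSeq. Scripts (Python 3.11, numpy 2.4.6, pandas 2.3.3) were tested on simulated data.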

Additional observations from a re-analysis of the deposited data

Results flagged for a closer look

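The median log2 change of density over the marked genes was 0.06 in OSKM B12 against MEF B12 and -0.70 in OSKM against MEF. It stands here because the same contrast of induced with uninduced cells lay on the 2 sides of 0 in the 2 media. The difference was not tested, with 1 library per condition. Among the named genes, 7 went past 1.5-fold one way with vitamin B12 and past 1.5-fold the other way, against the median, without it. Irs3 was gained with vitamin B12 and had a centred log2 change of -1.23 without it, and Cdkn1c and Gnmt likewise -0.69 and -0.64. Cd320 was higher with vitamin B12 and had -0.89 without it. Dnajb9, Tatdn3 and Tmem35b were lower with vitamin B12 and had 1.02, 0.91 and 1.17 without it. Taking off the median of -0.70 raises every value by more than 1.5-fold (0.585 in log2), so a gene with little signal can pass upwards. Dnajb9 had densities of 0 in MEF and 0.0124 in OSKM, Tmem35b 0 and 0.0191, and Tatdn3 0.0370 and 0.0510. The same count over all marked genes was not made. Genes with no peak in either MEF or OSKM were not counted here. These differences were not tested.

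Peaks on chromosomes X and Y entered no comparison and stand here as a signal outside it: 2186 were called in OSKM B12 and 2234 in MEF B12.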

How the results depend on the processing

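No paired analysis was possible because there was a single library for every group. The counts of gained (108) and lost (64) genes, list members among them (7) and higher (76) and lower (58) long bodies depended on the settings. With peaks of −log10 q of at least 5 they were 496, 270, 20, 432 and 279, and only 20 of the 108, 10 of the 64, 11 of the 76 and 4 of the 58 genes were called again. They were 184, 120, 12, 143 and 100 at a pseudocount of 0.02, and 39, 21, 1, 22 and 21 at 0.1. With fold enrichment as level they were 55, 34, 2, 29 and 37, and with at least 25% covered 51, 27, 2, 34 and 28. The downstream part of the body gave 190 gained, 130 lost, 163 higher and 117 lower, and at least 4 exons gave 51 gained, 30 lost and 3 list members. With a peak in both libraries (chosen after seeing the data) there were 40 gained, 26 lost and 2 list members, and with a peak in MEF or OSKM (also chosen then) 70 gained. The share of gained genes above the median without vitamin B12 (73.1%) became 83.1% at −log10 q of at least 5, 62.0% at the pseudocount of 0.02, 27.2% scaled to summed peak signal, 53.6% with no minimum, 62.5% with a peak in both libraries and 58.6% with a peak in MEF or OSKM. The share of lost genes below it (53.1%) became 17.4%, 88.1% (summed signal) and 72.3% (peak in MEF or OSKM). The ratio of peak numbers was 1.12 and that of covered length turned from 0.99979 to 1.03 at −log10 q of at least 5, and equal numbers of peaks gave 1 by construction. Regions in OSKM B12 or MEF B12 alone numbered 15446 and 14273 joined at 0 kb, 3396 and 2950 at 5 kb, and 2264 and 1467 at −log10 q of at least 5. The cause was not tested. Of the log2 values of named genes, 1683 moved by less than the SD across genes (0.31) and 154 by more, and none changed sign. In short bodies many calls rest on a peak in 1 library only; the part of depth in this was not tested.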
